A study of Rattus norvegicus with 8 samples.

Results

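The genes described here are 5 members of the angiotensin system, Agt, Ace, Agtr1a, Agtr2 and Enpep, chosen by symbol from 15892 gene symbols listed in both of the deposited tables. RNA was sequenced from 2 brain regions, hippocampus and hypothalamus, with 4 libraries from each. The donors were male rats of the outbred Sprague Dawley strain. The animals were 2 months old at the outset and were given 15% fructose to drink for 6 weeks while eating an omega-3 diet, which the labels give as DHA (docosahexaenoic acid). Every library used here comes from that diet, so neither fructose nor DHA has a comparison, and the contrast is hypothalamus against hippocampus. Whether each library is a separate animal is not in the labels, so the spread given is that between libraries.

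The angiotensin system turns the precursor angiotensinogen, encoded by Agt, into a family of short peptides. Angiotensin I is cut from it, angiotensin-converting enzyme (Ace) trims this to angiotensin II, and glutamyl aminopeptidase (Enpep) trims angiotensin II further to angiotensin III. Angiotensin II acts on the type 1 receptor (Agtr1a and its rodent paralog Agtr1b) and on the type 2 receptor (Agtr2). In the brain the system is known for its part in thirst, vasopressin release and blood pressure, and astrocytes are the main cells that make angiotensinogen there.

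A pair of members is shown here with the start of their gene, as the receptor that was higher in hypothalamus and the enzyme that varied most between libraries. Each window holds 300 bases, from 250 bases before the RefSeq start site onwards, in build GRCr8. Capitals mark matches to TATAAA or GGGCGG on either strand, letters known from the TATA box and from the GC box bound by Sp factors; matches of GGGCGG that overlap each other run on as one stretch.
Agtr1a, chr17:34435383-34435682, minus strand: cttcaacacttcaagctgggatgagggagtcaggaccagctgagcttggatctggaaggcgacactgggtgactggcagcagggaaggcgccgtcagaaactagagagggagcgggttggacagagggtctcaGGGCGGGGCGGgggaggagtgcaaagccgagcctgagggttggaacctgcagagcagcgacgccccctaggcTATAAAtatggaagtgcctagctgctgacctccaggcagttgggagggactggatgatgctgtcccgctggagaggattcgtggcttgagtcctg
Ace, chr10:91409879-91410178, plus strand: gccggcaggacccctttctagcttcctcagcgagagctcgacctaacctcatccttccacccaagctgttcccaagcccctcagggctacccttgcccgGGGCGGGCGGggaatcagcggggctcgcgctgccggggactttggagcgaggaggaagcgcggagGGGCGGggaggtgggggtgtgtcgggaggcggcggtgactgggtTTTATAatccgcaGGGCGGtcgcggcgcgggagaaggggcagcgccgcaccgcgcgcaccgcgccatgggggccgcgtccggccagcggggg
In Agtr1a the letters TATAAA began 45 bases before the start site, and 2 overlapping GGGCGG matches began 117 and 112 bases before it. In Ace the TATAAA letters lay on the opposite strand, within a match that began 42 bases before the start site, and 4 GGGCGG matches began 151, 147, 86 and 29 bases before it. Of 33469 RefSeq windows of this kind, 14.2% held TATAAA and 33.1% held GGGCGG on either strand. The windows of Agtr2 and Enpep held neither, and a match is a description of letters only.

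Expression values were FPKM, fragment counts relative to transcript length and library depth, a unit in which levels of different genes can be set side by side. Values are given after joint scaling of the 8 libraries, with factors from 0.892 to 0.950 for hippocampus and from 1.07 to 1.12 for hypothalamus. Calls of higher or lower rest on tissue means at least 1 apart in log2(FPKM + 1) and on libraries of the 2 tissues that do not overlap. This scale makes the differences of weakly expressed genes look smaller. The tissues stand in separate tables, so tissue and table cannot be told apart and no p-value was computed across them. Some genes used by every cell differed between the tables: of 64 ribosomal protein genes, 20 were at least 4-fold apart on that scale, in both directions. The tissue labels were checked by summed marker levels: 10 hypothalamic genes summed to 4.21 to 11.2 FPKM in hippocampus and 5800.1 to 10828 in hypothalamus, and 9 hippocampal genes to 1125 to 1832 and 27.0 to 31.3. Markers of neighbouring regions differed too, with 4 of 10 striatal genes called higher and 2 lower in hypothalamus, and 4 of 9 thalamic genes called higher and 1 lower, beside 13.3% higher and 13.4% lower among all genes compared. Genes compared had to reach a mean of 1 FPKM over the 8 libraries. The striatal genes Drd2 and Gpr6, both called higher, did so through their hypothalamic level alone. The part of neighbouring regions in the differences described here was not tested. Hippocampus replicates 3 and 4 stood apart in choroid plexus genes.

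Agt was the most abundant member in both tissues and was much higher in hypothalamus. Agtr1a was also higher in hypothalamus, at a low level in both. Ace varied more between hippocampal libraries than between tissues, Enpep overlapped between the tissues, and Agtr2 lay near 0 in every library. Of all 10554 genes that reached a mean of 1 FPKM over the 8 libraries, 13.3% were called higher and 13.4% lower in hypothalamus. Higher calls made up 49.8% of these, and 65.3% when the libraries were left unscaled, which moved the median gene from -0.04 to 0.18. Agt, Agtr1a, Ace and Enpep reached that mean, Agtr1a through its hypothalamic level alone, and 2 of the 4 were called higher. Agtr2 did not reach it.

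**Figure D1:**
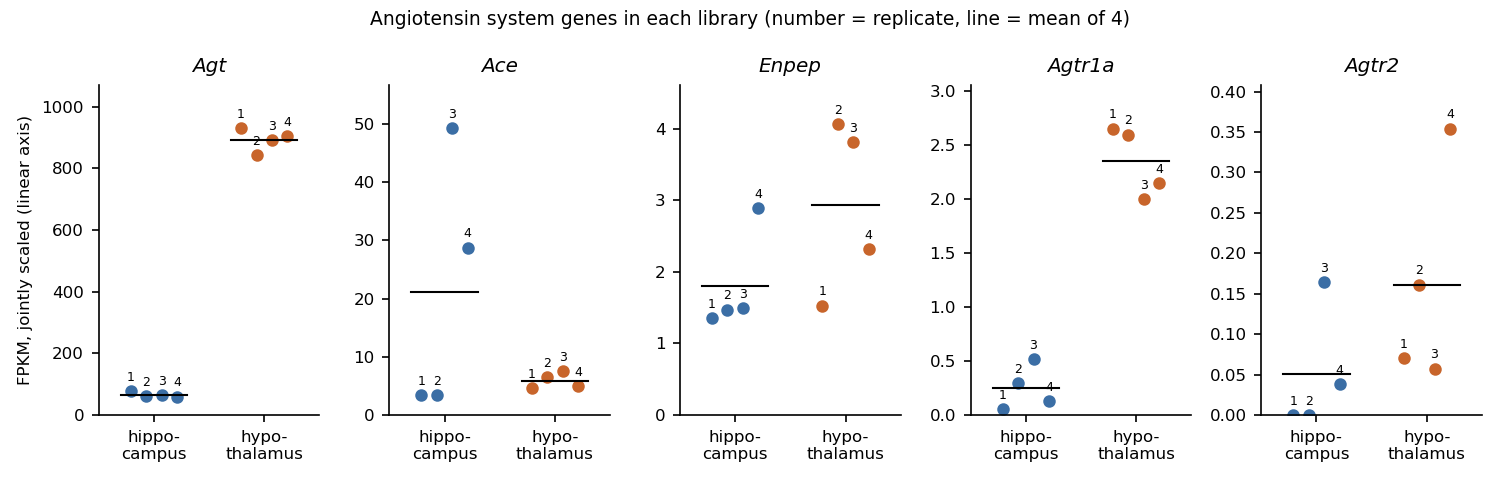
FPKM after joint scaling (linear axes, each from 0) of the 5 members in 4 hippocampus and 4 hypothalamus libraries; points are libraries numbered by replicate and lines are means of 4. Agt and Agtr1a do not overlap between the tissues, whereas Ace stands high in hippocampus replicates 3 and 4 only.

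The precursor gene Agt stood at 77.6, 60.9, 65.1 and 60.0 FPKM in hippocampus replicates 1 to 4. In hypothalamus it stood at 931, 842, 892 and 905 FPKM in replicates 1 to 4. The lowest hypothalamic library was thus 10.8 times as high as the highest hippocampal one. The means were 65.9 ± 8.11 and 892 ± 37.5 FPKM (SD, n = 4 each), a ratio of 13.5, and the log2 difference was 3.75 ± 0.09 (SE). In bulk tissue, fewer cells of a type and less RNA per cell cannot be told apart. Of the 10554 genes compared, 46 had a larger difference in this direction. By mean level Agt was 46th of 16183 symbols in the hypothalamus table and 1257th of 16223 in the hippocampus table. Its spread between hypothalamic libraries was small, with an SD of 0.06 on the log2 scale against a median of 0.18 among the 500 genes nearest in level.

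**Figure D2:**
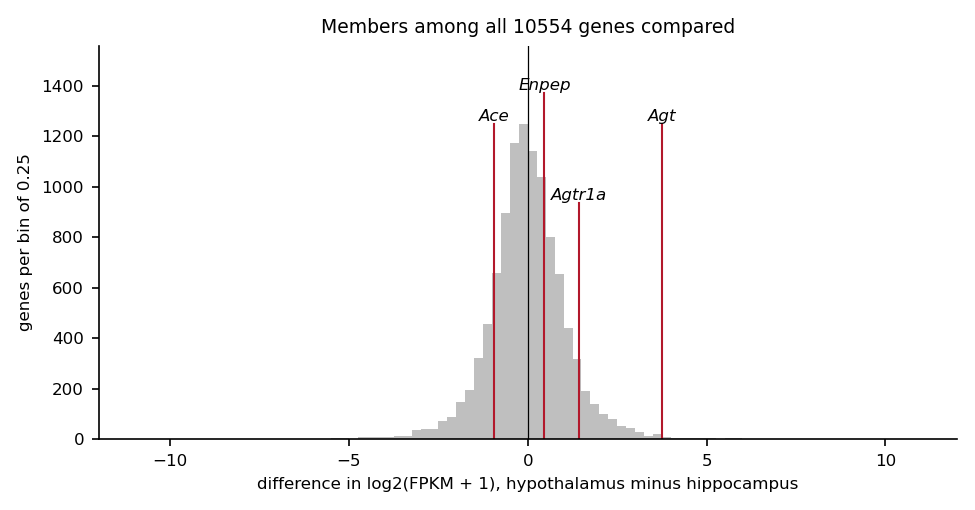
Number of genes (vertical axis) by difference in log2(FPKM + 1), hypothalamus minus hippocampus (horizontal axis, bins of 0.25), over 10554 genes, with red lines at the 4 members that reached a mean of 1 FPKM. Agt lies in the far right tail at 3.75, Agtr1a at 1.43, Enpep at 0.46 and Ace at -0.94.

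Markers of astrocytes also differed between the tissues, in mixed directions and by less. Of 14 markers, 6 were called higher in hypothalamus, 1 was called lower and 7 were neither, with a median difference of 0.57 against -0.04 for all genes compared. Of all genes compared, 13.3% were called higher and 13.4% lower. All 14 markers had a smaller difference than Agt. Slc6a11, a GABA transporter of astrocytes, averaged 37.6 ± 11.4 FPKM in hippocampus and 246 ± 40.1 FPKM in hypothalamus (SD, n = 4 each). Gjb6, encoding the gap junction protein connexin 30 of astrocytes, was at 27.9 ± 3.94 and 96.7 ± 21.2 FPKM. Slc1a2, the main glutamate transporter of astrocytes and singled out after its values were seen as the marker called lower, averaged 762 ± 252 FPKM in hippocampus against 249 ± 25.8 for hypothalamus. The summed level of the markers overlapped between the tissues, at 4668 to 4963 FPKM in hippocampus and 4660 to 6266 in hypothalamus, and no marker was at 0. Of 10 genes of ependymal cells and tanycytes, glia that line the ventricles, 5 were called higher in hypothalamus and 3 lower. The shares over all genes compared were again 13.3% and 13.4%. Of those called higher, Rax and Nes reached a mean of 1 FPKM through their hypothalamic level alone. The part of these cells in the Agt levels was not tested.

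Within a library, the level of Agt was also set against the median of these 14 markers, which needs no scaling between tables. In hippocampus Agt lay below that median in every library, at -1.17, -1.95, -1.44 and -1.47 on the log2 scale in replicates 1 to 4. In hypothalamus it lay above it in every library, at 2.22, 1.65, 1.77 and 1.83. The tissues differed by 3.37 ± 0.20 (SE), so Agt differed nearly as much relative to astrocyte markers as on its own. Agt spanned only 842 to 931 FPKM in hypothalamus and was highest in replicate 1. The summed astrocyte markers were lowest of that tissue in the same library, at 4660 FPKM against 5817 to 6266 in the other hypothalamic libraries. Single markers differed in this. Aqp4 and Fgfr3 had their highest hypothalamic values in replicate 1, Gfap, Aldh1l1 and Slc1a3 lay in between, and the other markers were lowest there. The part of astrocytes in the Agt levels was not tested.

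Of 13 listed regulators of Agt transcription 9 reached a mean of 1 FPKM, and 1 of these was called lower in hypothalamus, none higher and 8 neither, beside 13.4% called lower and 13.3% higher among all genes compared. The lower one was Cebpb, a C/EBP factor of the acute phase response, at 2.46 ± 0.77 FPKM in hypothalamus and 14.2 ± 12.4 in hippocampus (SD, n = 4 each). Its hippocampal mean was raised by replicate 1, at 32.7 FPKM against 6.21 to 9.26 in the others. Stat3, a factor of cytokine signalling singled out after its values were seen, stood at 13.0 to 16.0 FPKM in hippocampus and 19.6 to 29.1 in hypothalamus, so its tissues did not overlap, but its log2 difference of 0.71 ± 0.13 (SE) stayed under the limit of 1. Others were singled out in the same way. Usf2 had a difference of 0.98 and Cebpa of -0.62, each with tissues that overlapped. Esr1 lay at 0.14 to 0.49 FPKM in hippocampus and 0.92 to 1.96 in hypothalamus, but did not reach a mean of 1 FPKM. The median difference of the 9 was 0.05.

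The converting enzyme gene Ace split the hippocampal libraries. It stood at 3.39 and 3.36 FPKM in hippocampus replicates 1 and 2, and at 49.3 and 28.7 FPKM in replicates 3 and 4. In hypothalamus it stood at 4.63, 6.5, 7.55 and 4.93 FPKM in replicates 1 to 4. All 4 hypothalamic values therefore lay between the lower and the upper pair of hippocampal ones. The means were 21.2 ± 22.2 FPKM in hippocampus and 5.90 ± 1.37 in hypothalamus (SD, n = 4 each), with a log2 difference of -0.94 ± 0.93 (SE), and Ace was not called. Its SD between hippocampal libraries was 1.84 on the log2 scale, above 99.8% of the 500 genes nearest in level, whose median was 0.25.

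Genes of the choroid plexus, the epithelium that secretes cerebrospinal fluid and is known to carry Ace, showed the same split. All 10 listed genes that were above 0 in both tables were higher in hippocampus replicates 3 and 4 than in any other library, as was the case for 640 of the 10554 genes compared. Ttr, encoding transthyretin and singled out after its values were seen, stood at 38.7, 37.5, 6638 and 4990 FPKM in hippocampus replicates 1 to 4 and at 9.35 to 76.9 FPKM in hypothalamus. Kl, encoding the membrane protein klotho and singled out in the same way, stood at 0.39, 0.58, 48.9 and 26.9 FPKM in hippocampus and at 0.77 to 1.60 in hypothalamus. Tmem72, the choroid plexus gene called lower in hypothalamus, stood at 0.12, 0.12, 8.77 and 3.93 FPKM in hippocampus replicates 1 to 4 and at 0 to 0.08 in hypothalamus. Tmem72 reached a mean of 1 FPKM over the 8 libraries through hippocampus replicates 3 and 4 alone. Its call ended without hippocampus replicate 3, at -0.83. The summed level of the list was 60.8 and 83.2 FPKM in hippocampus replicates 1 and 2, 6971 and 5188 in replicates 3 and 4, and 37.3 to 122 in hypothalamus. Otx2, a homeobox gene that defines this epithelium, was listed at 0 in all 8 libraries. The part of choroid plexus RNA in the Ace levels was not tested.

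Without hippocampus replicates 3 and 4, an alternative chosen after seeing the data, Agt at 3.68 and Agtr1a at 1.51 were called as before. The Ace difference was then 0.64 and not called; as the libraries left out are those with the high Ace values, this sign follows from the choice and restates the split.

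**Figure D3:**
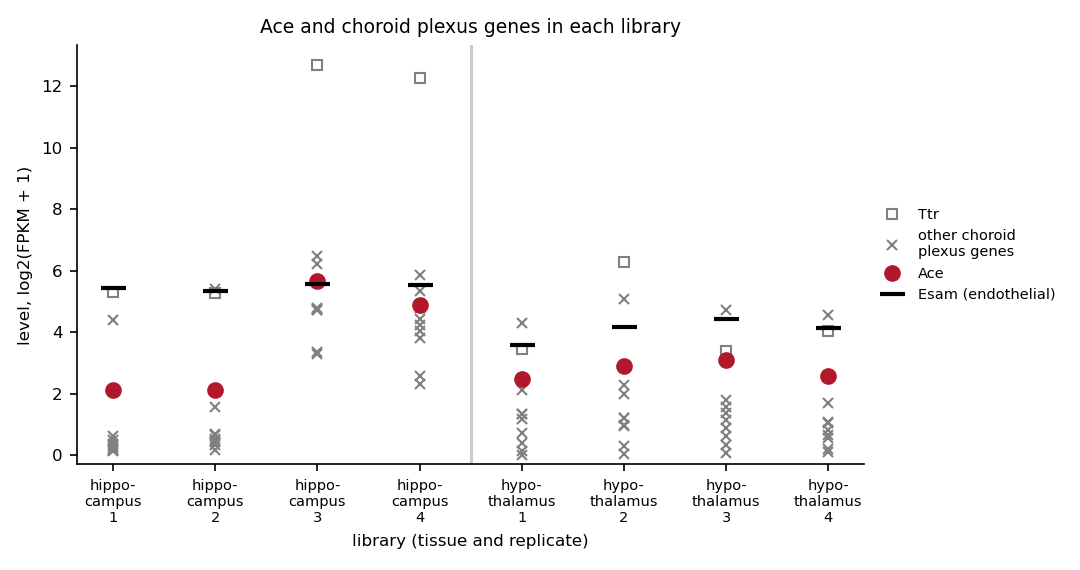
Level in log2(FPKM + 1) (vertical axis) in each of the 8 libraries (horizontal axis) for Ace (red), Ttr (squares), the other 9 choroid plexus genes above 0 (crosses) and the endothelial gene Esam (bars). Ace and the choroid plexus genes are high in hippocampus replicates 3 and 4, and Esam varies less than these across the hippocampal libraries.

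Endothelial cells also carry Ace on their surface, and their markers varied less than Ace between the hippocampal libraries. Their summed level was 325, 265, 339 and 350 FPKM in hippocampus replicates 1 to 4 and 172 to 245 FPKM in hypothalamus, with no marker at 0. That sum was higher in hippocampus replicates 3 and 4 than in replicates 1 and 2, though by far less than Ace. Of 11 markers, hypothalamus was called higher for 1 and lower for 3, with 7 not called, with a median difference of -0.44. For all genes compared, the shares were 13.3% higher and 13.4% lower. Esam, an endothelial adhesion molecule, averaged 43.6 ± 3.18 FPKM in hippocampus and 16.3 ± 4.0 FPKM in hypothalamus (SD, n = 4 each). Cdh5, the cadherin of endothelial junctions, was at 3.72 ± 0.59 and 10.1 ± 3.77 FPKM. Relative to the median endothelial marker of the same library, Ace stood at -1.02, -1.24, 2.41 and 1.83 on the log2 scale in hippocampus replicates 1 to 4 and at -0.77 to -0.23 in hypothalamus. The difference of -0.91 ± 0.95 (SE) was not called.

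The peptidase gene Enpep stood at 1.35, 1.47, 1.49 and 2.89 FPKM in hippocampus replicates 1 to 4. In hypothalamus it stood at 1.53, 4.06, 3.81 and 2.31 FPKM in replicates 1 to 4. The tissues overlapped, with hypothalamus replicate 1 close to the low hippocampal libraries and hippocampus replicate 4 above hypothalamus replicates 1 and 4. The means were 1.80 ± 0.73 and 2.93 ± 1.21 FPKM (SD, n = 4 each), and the log2 difference of 0.46 ± 0.29 (SE) was not called.

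Each table held 2 loci under the symbol Enpep, numbered here by their order in it, and the first of them varied more between libraries. The first locus was listed at 0 in hippocampus replicates 1, 2 and 3 and at 1.38 FPKM in replicate 4, and at 0.0035, 1.84, 2.43 and 1.13 FPKM in hypothalamus replicates 1 to 4. The second locus lay at 1.35 to 1.51 FPKM in the hippocampal libraries and at 1.18 to 2.22 in the hypothalamic ones. The second locus, the higher of the pair by mean in both tissues, differed between the tissues by 0.05. The tables hold no coordinates, so what the first locus covers is not known here. Nor is it known whether loci of the same number are the same stretch in both tissues.

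**Figure D4:**
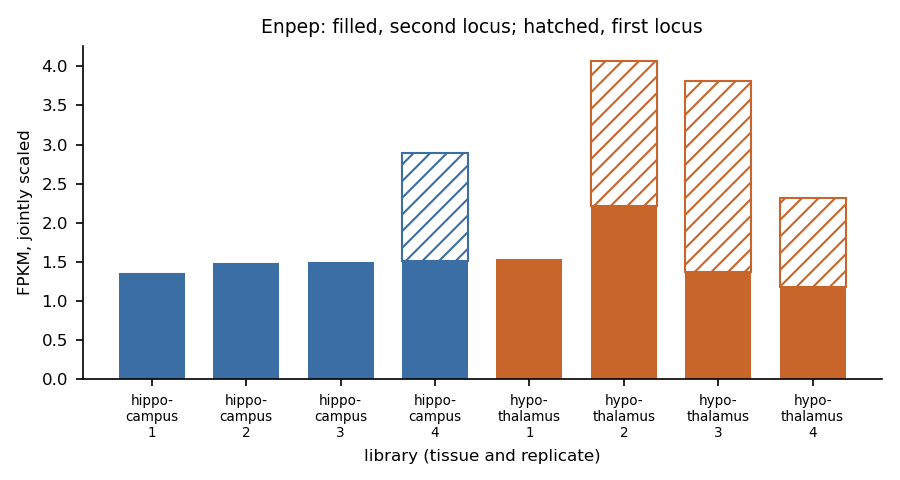
FPKM after joint scaling (vertical axis, from 0) of the 2 Enpep loci in each library (horizontal axis), with the second locus filled and the first hatched on top. Loci are numbered by their order within each tissue. The second locus lies between 1.18 and 2.22 FPKM in all libraries, while the first is near 0 in hippocampus replicates 1 to 3 and in hypothalamus replicate 1.

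Enpep is known from pericytes, contractile cells of the capillary wall, and 4 of 12 mural markers were called higher in hypothalamus while the other 8 were not called, with a median difference of 0.76. Among all genes compared, 13.3% were called higher and 13.4% lower. Des, encoding the muscle filament desmin, averaged 1.94 ± 0.94 FPKM in hippocampus and 19.4 ± 8.24 FPKM in hypothalamus (SD, n = 4 each), and Tagln, a smooth muscle gene, at 32.9 ± 20.1 and 160 ± 57.3 FPKM. The summed mural level was 151, 215, 260 and 394 FPKM in hippocampus replicates 1 to 4 and 322, 485, 650 and 445 in hypothalamus replicates 1 to 4. Like Enpep, the sum was highest in replicate 4 of hippocampus and lowest in replicate 1 of hypothalamus, but single markers differed in this. The smooth muscle gene Acta2, singled out with the markers that follow after their values were seen, stood at 43.9, 111, 158 and 256 FPKM in hippocampus replicates 1 to 4. The pericyte genes Rgs5, Cspg4 and Pdgfrb had their lowest hippocampal values in replicate 4, at 29.7, 2.74 and 6.32 FPKM, as did Notch3. By contrast, Vtn and Higd1b had their highest hippocampal values in replicate 4, at 19.1 and 5.10 FPKM, as did Des and Tagln. Kcnj8, Abcc9 and Ndufa4l2 lay in between. The median mural marker was lowest in replicate 4, at 2.36 in log2(FPKM + 1) against 2.40 to 2.45 in the other hippocampal libraries. The part of mural cells in the Enpep levels was not tested. Relative to the median mural marker of the same library, Enpep stood at -0.95 ± 0.37 on the log2 scale in hippocampus and -1.61 ± 0.22 in hypothalamus (SD, n = 4 each). That difference of -0.65 ± 0.22 (SE) was not called, but it was called at -1.70 when markers under a mean of 5 FPKM were dropped and at -1.15 with the higher locus alone.

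The receptor gene Agtr1a stood at 0.05, 0.30, 0.52 and 0.13 FPKM in hippocampus replicates 1 to 4. In hypothalamus it stood at 2.65, 2.59, 2.00 and 2.15 FPKM in replicates 1 to 4. The lowest hypothalamic library was 3.86 times as high as the highest hippocampal one. The means were 0.25 ± 0.21 and 2.35 ± 0.32 FPKM (SD, n = 4 each), a ratio of 9.47, and the log2 difference was 1.43 ± 0.14 (SE) with a pseudocount of 1 and 3.0 with a pseudocount of 0.1. Its paralog Agtr1b lay at 0 to 0.08 FPKM in hippocampus and at 0 to 0.02 in hypothalamus. How reads that match both copies were counted is not given in the sources used here, so the split between Agtr1a and Agtr1b is uncertain.

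The receptor gene Agtr2 stood at 0, 0, 0.16 and 0.04 FPKM in hippocampus replicates 1 to 4 and at 0.07, 0.16, 0.06 and 0.35 FPKM in hypothalamus replicates 1 to 4. The tissues overlapped. Low values of replicates 2, 3 and 4 fell on shared steps, so relative counts could be read from them. The smallest whole numbers that match the Agtr2 values were 0, 4 and 1 in hippocampus replicates 2, 3 and 4, and 6, 2 and 13 in hypothalamus replicates 2, 3 and 4, each within 0.21%. The true counts may be multiples of these, and replicate 1 of either tissue did not fall on the steps. Agtr2 did not reach a mean of 1 FPKM, so no call was made for it.

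The order of levels was Agt, Ace, Enpep, Agtr1a and Agtr2 in the mean of both tissues. In hypothalamus Agt exceeded Ace by a ratio of 151 between the means, and in hippocampus by 3.11. The hippocampal ratio rests on an Ace mean raised by replicates 3 and 4, at 49.3 and 28.7 FPKM. Ace was at 3.39 and 3.36 FPKM in hippocampus replicates 1 and 2, so the ratio does not describe the single libraries. In hypothalamus, Enpep and Agtr1a did not differ beyond their spread, with Enpep higher in 3 of 4 libraries. This place of Enpep rests on adding up its 2 loci. Its second locus alone, at 1.18 to 2.22 FPKM, lay below Agtr1a in every hypothalamic library. In hippocampus, Agtr1a and Agtr2 overlapped, with Agtr1a higher in 4 of 4 libraries. All other neighbours in the order were apart in every library, although Ace and Enpep came close in hippocampus, at 3.36 FPKM for the lowest Ace value and 2.89 for the highest Enpep value.

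The wider angiotensin pathway, a list of 28 further enzymes, receptors and related genes, had 23 listed in both tables, of which 14 reached a mean of 1 FPKM. None of the 14 was called higher in hypothalamus, while 2 were called lower and 12 not called, beside 13.3% higher and 13.4% lower among all genes compared. Their median difference was -0.09, against -0.04 for all genes. Nr3c2, the mineralocorticoid receptor through which aldosterone acts, averaged 38.4 ± 10.2 FPKM in hippocampus and 9.44 ± 1.15 FPKM in hypothalamus (SD, n = 4 each), a log2 difference of -1.88 ± 0.21 (SE). Atp6ap2, an accessory protein of the proton pump, averaged 291 ± 20.5 FPKM in hippocampus and 138 ± 20.5 in hypothalamus, a log2 difference of -1.07 ± 0.11 (SE). The call of Atp6ap2 ended without scaling of the libraries, at -0.84, and with upper-quartile scaling, at -0.96, and Nr3c2 sums 2 loci in each table. Of the genes with the highest levels, the lysosomal protease genes Ctsd and Ctsa overlapped between the tissues, Ctsd at 222 ± 51.3 and 226 ± 72.4 FPKM and Ctsa at 70.2 ± 12.8 and 62.7 ± 11.0 FPKM in hippocampus and hypothalamus. For Ctsd this sets 1 hippocampal locus against the sum of 2 hypothalamic ones. With the highest locus only, its log2 difference was -0.75 and not called.

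Some other genes of the pathway were low, and the following were named after their values were seen. Anpep, the aminopeptidase that trims angiotensin III, lay at 1.39 to 3.27 FPKM in hippocampus, highest in replicate 4, and at 1.93 to 3.92 in hypothalamus, lowest in replicate 1. Mas1, the receptor of angiotensin-(1-7), was listed in the hypothalamus table only, at 0.65 to 1.51 FPKM, and a missing entry is not read as missing expression. Hsd11b2, which shields the mineralocorticoid receptor from glucocorticoids, lay at 0 to 0.16 FPKM in hippocampus and 0.56 to 0.89 in hypothalamus and did not reach a mean of 1 FPKM.

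**Figure D5:**
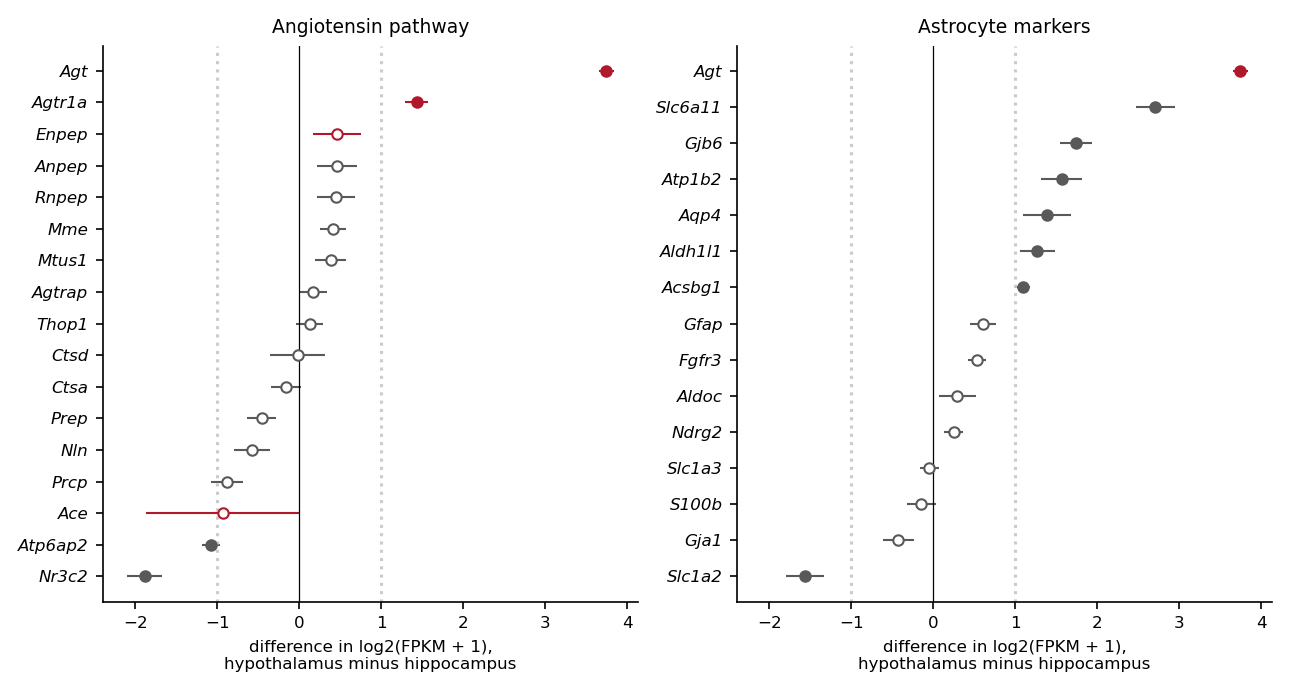
Difference in log2(FPKM + 1), hypothalamus minus hippocampus (horizontal axis; bars are SE over 4 and 4 libraries), for members (red) with the wider pathway on the left and for Agt (red) with astrocyte markers on the right, only genes that reached a mean of 1 FPKM, with some pathway genes left out; filled points are called higher or lower and dotted lines mark -1 and 1. Agt lies to the right of every other gene shown in both panels, and Nr3c2 lies farthest to the left in the pathway.

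Genes with the most similar pattern were found by the root mean square difference from a member over the 8 libraries, in log2(FPKM + 1) centred on each gene. They share libraries and scaling with the member, so the measure is a description. Closest to Agt was Rpl29, a ribosomal protein gene, at a distance of 0.18, with 27.7 to 45.0 FPKM in hippocampus and 542 to 563 in hypothalamus; it belongs to a family that differed between the tables in both directions. Next were Zfp865 at 0.19, Il17rb, a cytokine receptor gene, at 0.20, and Cd99 and Ass1, the latter encoding argininosuccinate synthetase, both at 0.21. Closest to Ace were Steap1 at 0.24, Glycam1 at 0.33 and the choroid plexus gene Tmem72 at 0.36. Closest to Agtr1a were RGD1310641 at 0.10, Slc20a2, a phosphate transporter gene, at 0.12, and Tmem216 at 0.13. Closest to Enpep were Kirrel at 0.16, Ttll12 at 0.17 and Efna1, an ephrin gene, at 0.19. Of these nearest genes, Slc20a2, Zfp865 and Il17rb had 1 locus in hippocampus and 2 in hypothalamus. With the highest locus only, Slc20a2 was not called, at 0.90 rather than 1.40. Zfp865 and Il17rb stayed called higher, at 3.79 and 3.38. Il17rb and RGD1310641 reached a mean of 1 FPKM through their hypothalamic level alone, and Glycam1 and Tmem72 through their hippocampal level alone.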

How the data were processed

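Libraries were made from poly-A selected RNA, per the labels' protocols. FPKM values were deposited by the authors in 2 tables, 1 per tissue, with a status beside each value; all values of the members carried OK. Alignment tools in the submitters' processing notes are Bowtie, Bowtie2, TopHat and TopHat2, beside Cuffdiff, Cufflinks and build rn5. Versions, options and strand handling: not given in the sources used here.

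Loci of 1 symbol were added up, and each library was divided by a median-of-ratios factor per library over the symbols of both tables (Python 3.11.15, pandas 2.3.3). Calls needed a difference of at least 1 in log2(FPKM + 1) and no overlap; differences carry the SE over 4 and 4 libraries. Read depth is unknown; low values under 0.05 FPKM fell on shared steps (tolerance 0.01 in natural log units), namely 93.1 to 97.6% of loci between replicates 2, 3 and 4 of a tissue and 10.6 to 18.4% with replicate 1. Same-numbered libraries of the tissues deviated together with correlations of -0.08 to 0.14 across genes, and libraries of different number with -0.20 to 0.20. These values cannot show whether libraries share an animal, which the labels do not say. Same-numbered libraries were therefore not treated as pairs. Named were all members, called pathway genes, the 3 highest pathway genes, the 2 called markers with the largest difference per list, and the nearest patterns; others are marked in the text, and some pathway genes, though within the counts of that list, are not reported here. Members and lists were chosen with earlier results of these data known. RefSeq windows were matched by symbol for 4 of 5 members.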

Additional observations from a re-analysis of the deposited data

Results flagged for a closer look

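Among 84 groups of 4 libraries examined for the named genes, 6 held a library far from the other 3, and chance flags about 1 group in 20. Enpep in hippocampus replicate 4 was at 2.89 FPKM against 1.35 to 1.49 in the others, and relative to mural markers it was at -0.40 against -1.18 to -1.08 on the log2 scale. Ttr in hypothalamus replicate 2 was at 76.9 FPKM against 9.35 to 15.4, far below the 6638 and 4990 FPKM of hippocampus replicates 3 and 4. Ace in hypothalamus replicate 2 was at 6.5 FPKM, within the range of its tissue, and a link between these levels was not tested. Cebpb in hippocampus replicate 1 was at 32.7 FPKM against 6.21 to 9.26. Of the genes with a pattern like a member, Ass1 in hippocampus replicate 2 was at 2.36 FPKM against 4.24 to 4.51 and Tmem216 in hippocampus replicate 1 at 4.45 against 6.15 to 6.43.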

How the results depend on the processing

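Agt and Agtr1a were called higher in hypothalamus under every alternative tried, Agt at 3.68 to 3.98 and Agtr1a at 1.31 to 3.0, and Agt relative to astrocyte markers stayed called at 2.96 to 3.48. Leaving out 1 library gave 3.70 to 3.83 for Agt, 1.36 to 1.53 for Agtr1a, -1.46 to -0.28 for Ace, 0.32 to 0.66 for Enpep and 0.06 to 0.19 for Agtr2. Without hippocampus replicates 3 and 4, the libraries with high Ace, the Ace difference was by that choice 0.64, and 0.71 relative to endothelial markers. Enpep relative to mural markers was called lower at -1.70 when genes under a mean of 5 FPKM were dropped, which leaves fewer markers, and at -1.15 with the highest locus only. Pathway genes called lower numbered 1 rather than 2 under upper-quartile scaling, without scaling and with 1 locus in each table. Without scaling, calls in all genes numbered 1912 higher and 1018 lower (65.3% of calls higher, against 49.8%), and the median gene moved from -0.04 to 0.18. Some uncalled differences changed sign. That of Ctsd (-0.02) was 0.22 without scaling, 0.10 under upper-quartile scaling, 0.27 without replicate 1 of both tissues, 0.23 without hippocampus replicates 3 and 4, and -0.19 to 0.25 with 1 library left out. It kept its sign but moved farthest, to -0.75, with the highest locus only. That of Ctsa (-0.16) was 0.071 without scaling. Without hippocampus replicates 3 and 4 it was 0.014, that of Steap1 0.71 rather than -0.68 and that of Glycam1 0.10 rather than -1.15. With a replicate block, calling by the sign of the 4 same-numbered differences, 1431 genes were higher and 1431 lower, and no call of a member changed. Enpep has 2 loci, so it has no value with 1 locus in each table. Read depth is unknown, so how far it limits Agtr2, at 0.35 FPKM or less in every library, was not tested.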
